A study of Mus musculus with 48 samples.

Results

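This account follows 9 genes of the BCL2 family through mouse macrophages of 8 populations, each exposed to 10 µM AP-3-84 or to its vehicle DMSO for 4 h. The labels do not describe AP-3-84 beyond its name. The genes are Bcl2a1a, Bcl2a1b, Bcl2a1d, Mcl1, Bcl2, Bcl2l1, Bcl2l11, Bid and Bak1. They were matched by symbol to 9 of the 51789 gene rows of a table of raw counts, and the 3 Bcl2a1 copies were also summed because their sequences are nearly alike. The genes were selected on earlier results of these same libraries, over all 16 groups, so their fold changes and adjusted p-values describe each gene and are not offered as evidence about the family. All 9 passed the filter on low counts, among 16955 genes tested in peritoneal and 11779 in bone marrow-derived macrophages.

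BCL2 family proteins decide whether the outer mitochondrial membrane stays closed. The survival members BCL2, BCL-XL (gene Bcl2l1), MCL1 and A1 (genes Bcl2a1a, Bcl2a1b and Bcl2a1d) bind and hold the death members. The BH3-only proteins BIM (gene Bcl2l11) and BID start the death signal, and BAK (gene Bak1) forms the pore that lets cytochrome c out. In macrophages, A1 is best known as a target of NF-kB that rises with inflammatory stimuli, and MCL1 as a short-lived protein that myeloid cells need to stay alive.

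Each of the 16 groups held 3 libraries. Ascites macrophages were F4/80+ cells taken on magnetic beads from peritoneal washes of mice injected 45 days before with ID8, a mouse ovarian tumour line, and their genotype label reads B6(Cg)-Tyrc-2J/J. Thio macrophages were F4/80+ cells taken the same way from wild-type C57BL/6 mice 4 days after 1 ml of 3% thioglycollate, which irritates the peritoneum so that macrophages gather there. Bone marrow gave the remaining 6 populations, grown from marrow of wild-type (WT) or p53 knockout (KO) C57BL/6 mice for 6 days in 10 ng/mL M-CSF, the growth factor of macrophages. They are called M0 without further stimulus and M1 or M2 after another 24 h of polarization. M1 cells received LPS at 100 ng/mL together with IFN-γ at 50 ng/mL, and M2 cells 10 ng/mL of IL-4 plus 10 ng/mL of IL-13. Whether M0 cells were also kept for those 24 h is not given in the sources used here, nor are the deleted part of Trp53 and the age of the mice. The genotype field calls the KO libraries wild-type, while their titles and descriptions and the series design call them KO, which is followed here. The labels do not say whether the 3 libraries of a group came from separate mice or cultures, so p-values measure only the spread between these libraries, which may be technical.

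Total counts ran from 15532373 to 19417581 per peritoneal library and from 3081707 to 4645148 per bone marrow-derived library, and the 2 sets were not compared with each other. All 8 macrophage markers, among them Adgre1 (F4/80) and Csf1r, were detected in every group. Their summed level was lowest in a KO_M2 vehicle library (5970 CPM, counts scaled for library size with TMM) and highest in a WT_M1 library with AP-3-84 (49118 CPM). Summed B cell markers stayed at or under 22.9 CPM, and summed T cell markers at or under 7.08 CPM. Summed neutrophil markers ranged from 128 to 4061 CPM, and epithelial or mesothelial markers stood at 210 to 271 CPM in ascites against at most 4.66 CPM elsewhere. In bulk samples, fewer cells of a type and less RNA per cell cannot be told apart.

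One group and several libraries stood apart from the rest. In KO_M0 vehicle libraries Marco, a scavenger receptor, stood at 14.3 to 17.5 CPM against 1171 to 2070 CPM in WT_M0 vehicle libraries, Acod1, which makes itaconate, at 5.54 to 8.39 against 189 to 427 CPM, and the cytokine Tnf at 13.3 to 21.7 against 187 to 238 CPM. KO_M0 libraries with AP-3-84 held 473 to 2896 CPM of Marco, 46.1 to 147 CPM of Acod1 and 66.4 to 266 CPM of Tnf. These genes were chosen after their values were seen. Every comparison that uses the KO_M0 vehicle libraries carries this difference in activation genes, whose part in the results was not tested. Replicate 3 of KO_M0 with AP-3-84 correlated less with replicates 1 and 2 (Pearson r of log2 CPM 0.939 and 0.909) than those did with each other (0.963). WT_M2 vehicle replicate 1 also stood apart, with r of 0.949 and 0.925 with its mates against 0.963 between them, with 1089 CPM of Marco against 130 and 83.6 CPM and 1582 CPM of Acod1 against 436 and 176 CPM. The lowest r was 0.936 in KO_M1 vehicle (replicates 1 and 2) and 0.928 in KO_M2 vehicle (replicates 1 and 3). Trp53, the targeted gene, was still counted in KO cells, at 4.34 ± 1.87 CPM (SD, n = 3) in KO_M0 vehicle against 11.1 ± 2.04 CPM in WT_M0 vehicle (log2 fold change -1.34, edgeR adjusted p 0.0102), and was not called between genotypes in M1 (-0.22, adjusted p 0.765) or M2 (-0.63, adjusted p 0.407). A 3′ read outside the deleted part would check nothing. Cdkn1a, a p53 target, stood at 555 to 1119 CPM in WT libraries and at 34.1 to 292 CPM in KO libraries, with no overlap.

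The sequences of the Bcl2a1 copies are shown first because they set what can be said of each copy. In GENCODE M21 (GRCm38) the 3 copies lie on chromosome 9, Bcl2a1d (ENSMUSG00000099974) at 88723285 to 88731914 on the minus strand, Bcl2a1a (ENSMUSG00000102037) at 88956900 to 88962419 on the plus strand and Bcl2a1b (ENSMUSG00000089929) at 89199209 to 89207827 on the plus strand. Their transcripts are 98.2% (Bcl2a1a with Bcl2a1b), 98.8% (Bcl2a1a with Bcl2a1d) and 99.1% (Bcl2a1b with Bcl2a1d) identical over the aligned bases. Of the 75-base windows in the last 500 bases of the transcript, where a 3′ read starts, 48.4% for Bcl2a1a, 48.6% for Bcl2a1b and 72.1% for Bcl2a1d occur unaltered in another copy. A read of 75 bases from such a window cannot be given to a copy by its sequence, and how such reads were divided is not given in the sources used here. The stretches upstream of the start sites are as close. The following lines give the part of the upstream windows that all 3 copies have (RefSeq, GRCm38.p6, 5′ to 3′ on the strand of the gene), at chr9:88956714-88956855 for Bcl2a1a, chr9:89199023-89199164 for Bcl2a1b and chr9:88731915-88732050 for Bcl2a1d. Capitals mark bases that differ from, or are missing in, another copy.
Bcl2a1a: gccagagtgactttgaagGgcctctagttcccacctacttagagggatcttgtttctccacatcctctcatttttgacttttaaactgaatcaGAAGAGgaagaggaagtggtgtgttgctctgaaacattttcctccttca
Bcl2a1b: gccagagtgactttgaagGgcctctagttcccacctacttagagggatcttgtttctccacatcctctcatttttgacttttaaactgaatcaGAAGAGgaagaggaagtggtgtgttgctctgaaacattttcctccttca
Bcl2a1d: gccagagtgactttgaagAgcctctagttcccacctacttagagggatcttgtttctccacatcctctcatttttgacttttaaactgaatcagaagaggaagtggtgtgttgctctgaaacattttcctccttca
Bcl2a1a and Bcl2a1b have the same 142 bases there, and Bcl2a1d has 136 bases with 1 substituted base and a gap of 6. Over the 250 bases before the RefSeq starts, an NF-kB consensus, the STAT motif TTCNNNGAA and the cAMP element TGACGTCA were searched on both strands. None of the 12 start windows of the 9 members held one, against 0.356%, 7.02% and 1.55% of all 32851 windows of that length. The absence of these letters says nothing of the factors.

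The A1 copies varied most with polarization. In vehicle libraries of bone marrow-derived cells, summed Bcl2a1 stood at 76.0, 154 and 115 CPM in WT_M0, at 606, 626 and 531 CPM in WT_M1 and at 585, 852 and 623 CPM in WT_M2. In KO cells it stood at 157, 151 and 118 CPM in M0, at 386, 589 and 499.7 CPM in M1 and at 637, 426 and 561 CPM in M2. The 6 M0 libraries thus lay below the 12 polarized ones, in either genotype. The order of the group means was WT_M0 (115 ± 39.2, SD, n = 3), KO_M0 (142 ± 21.1), KO_M1 (492 ± 101), KO_M2 (541 ± 107), WT_M1 (587 ± 50.1) and WT_M2 (687 ± 144 CPM). KO_M0 and KO_M1 were the only neighbours in that order whose ranges did not overlap. Relative to M0, the sum rose in WT_M1 by 2.35 on the log2 scale (SE 0.251, adjusted p of edgeR 1.09e-07) and in WT_M2 by 2.58 (SE 0.253, adjusted p 7.21e-09). In KO cells it rose by 1.79 in M1 (SE 0.246, adjusted p 1.14e-06) and by 1.93 in M2 (SE 0.247, adjusted p 5.09e-07). The difference between genotypes was not called, at -0.56 for M1 (adjusted p 0.251) and -0.65 for M2 (adjusted p 0.155). Markers of neutrophils, which also express A1, moved in some of these comparisons: of 8 tested, 0 were called in WT_M1, 3 higher in WT_M2, 2 higher in KO_M1 and 1 higher in KO_M2. Their sums in vehicle libraries were 290 to 516 CPM in WT_M0, 451 to 581 in WT_M1 and 475 to 4061 in WT_M2, and 612 to 769 in KO_M0, 1015 to 2566 in KO_M1 and 372 to 3388 in KO_M2. Of the 8 macrophage markers, 3 were called higher and 0 lower in WT_M1, and 1 higher and 2 lower in WT_M2. In KO cells, 3 were higher and 4 lower in M1, and 0 higher and 4 lower in M2. Of all genes, 15.5%, 23.4%, 44.5% and 38% were called in WT_M1, WT_M2, KO_M1 and KO_M2. The part of the neutrophil and macrophage markers in the rises was not tested.

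**Figure D1:**
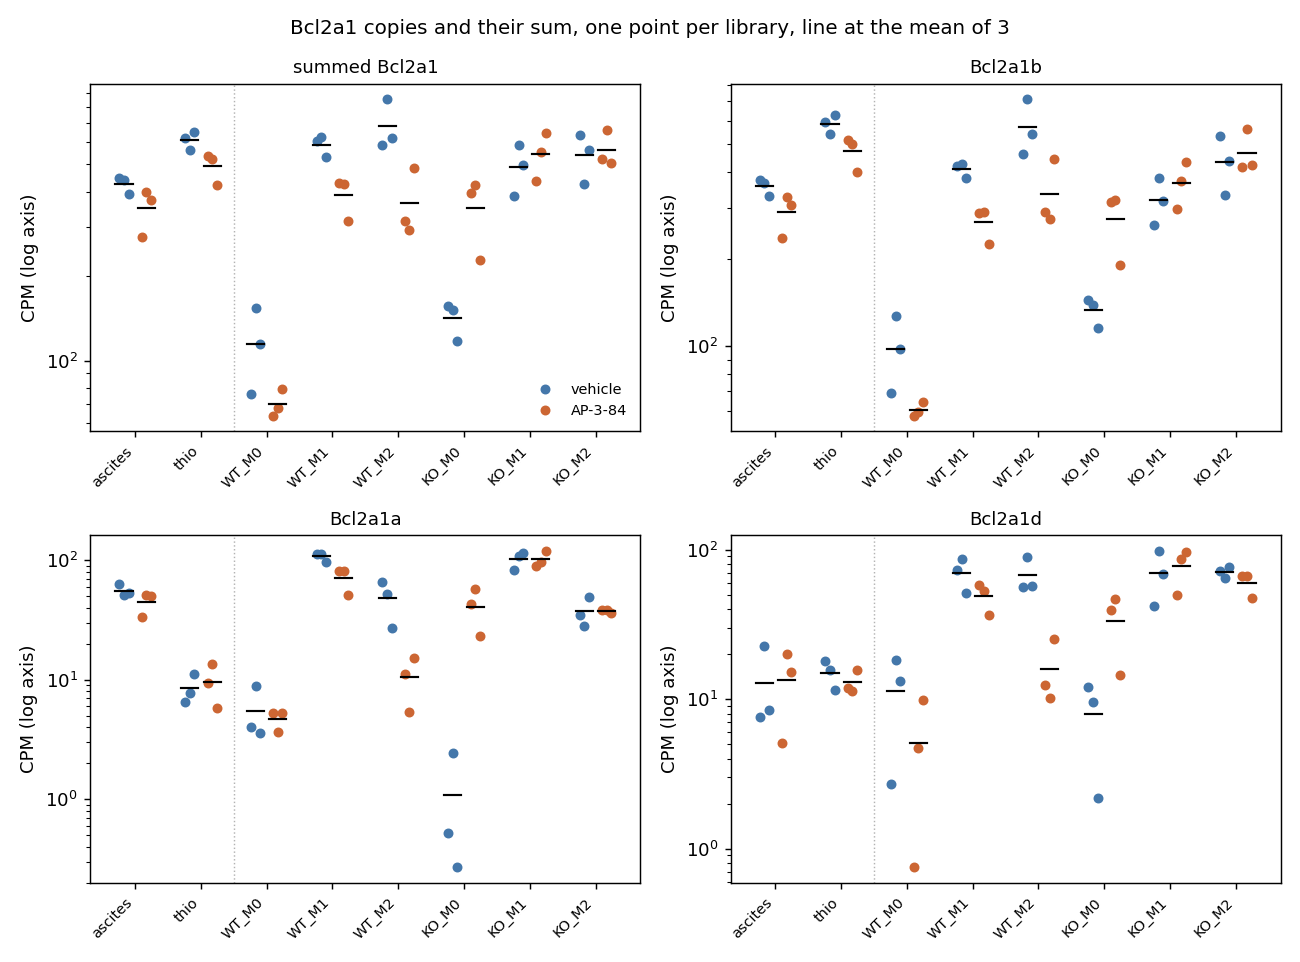
Levels of summed Bcl2a1 and of each copy in CPM (log axis) in the 8 populations, blue for vehicle and orange for AP-3-84, with 1 point per library and a line at the mean of 3; the dotted line parts peritoneal from bone marrow-derived cells. For the sum, WT_M0 with AP-3-84 (63.8 to 79.3 CPM) lies lowest, the M0 vehicle libraries lie below the polarized ones, and KO_M0 with AP-3-84 (228 to 423 CPM) lies above KO_M0 vehicle (118 to 157 CPM).

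The copies rose by unequal amounts in M1 and M2. Bcl2a1b, which took most of the counts, rose in WT_M1 by 2.06 (SE 0.23, adjusted p 1.97e-07) and in WT_M2 by 2.54 (SE 0.234, adjusted p 1.44e-09). Bcl2a1a rose from 4.04, 8.84 and 3.58 CPM in WT_M0 to 112, 114 and 97.4 CPM in WT_M1, a log2 fold change of 4.28 (SE 0.4, adjusted p 2.15e-08), and to 65.9, 51.9 and 26.9 CPM in WT_M2 (3.13, adjusted p 9.09e-07). Bcl2a1d rose by 2.63 in WT_M1 (adjusted p 0.00228) and by 2.57 in WT_M2 (adjusted p 0.00162). In KO_M0 vehicle libraries Bcl2a1a was close to nothing, at 2, 8 and 1 counts (0.524, 2.46 and 0.27 CPM), so its log2 fold changes in KO_M1 (6.59, adjusted p 1.84e-10) and KO_M2 (5.13, adjusted p 1.80e-08) start from few reads. Bcl2a1b rose there by 1.26 in M1 (adjusted p 3.59e-05) and by 1.70 in M2 (adjusted p 8.07e-07). Bcl2a1d rose by 3.12 (adjusted p 0.000148) and 3.16 (adjusted p 0.000176).

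The share of each copy among the summed counts also differed between groups. Bcl2a1b took 63.3% to 97.9% of the sum in bone marrow-derived libraries (median 80.4%) and 82.0% to 96.5% in peritoneal ones (median 90.5%). Bcl2a1a took 4.72% ± 1.40 (SD, n = 3) in WT_M0 vehicle, 18.3% ± 0.141 in WT_M1 and 7.22% ± 3.61 in WT_M2, and 0.73% ± 0.778 in KO_M0, 21.1% ± 2.27 in KO_M1 and 6.93% ± 1.69 in KO_M2. Its share was also higher in ascites vehicle (13.1% ± 1.32) than in thio vehicle (1.38% ± 0.333), with no overlap. Since reads of windows that the copies share cannot be placed by sequence, these shares are those of the deposited counts and not necessarily of the transcripts. Bcl2a1c (chromosome 9, 114330135 to 114330578), a further copy that is no member, had 0 counts in all bone marrow-derived libraries and at most 5 over the 3 libraries of a peritoneal group.

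**Figure D2:**
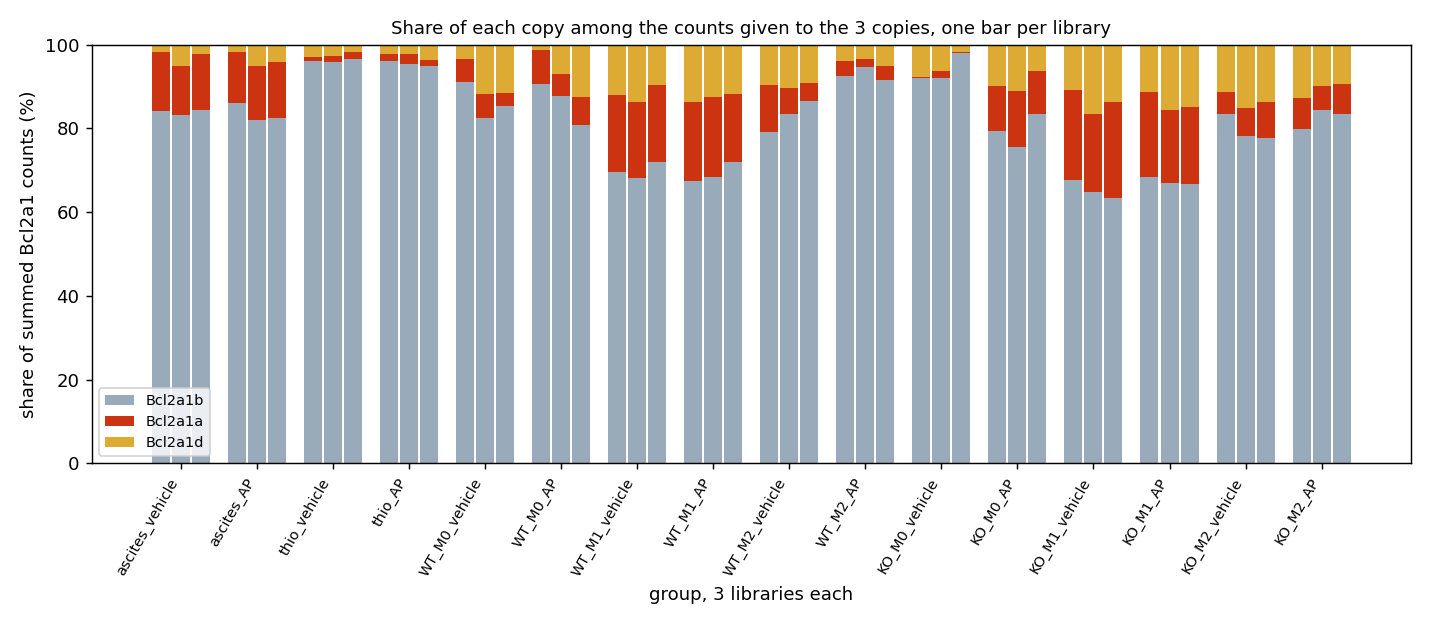
Share in percent of Bcl2a1b (grey), Bcl2a1a (red) and Bcl2a1d (yellow) in the counts given to the 3 copies, 1 bar per library and 3 bars per group. The red part is widest in M1 libraries and narrowest in thio and KO_M0 vehicle libraries.

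With AP-3-84, the sum rose in KO_M0 cells and fell in WT_M2 cells, the latter at an adjusted p near the threshold. In KO_M0, summed Bcl2a1 rose from 157, 151 and 118 CPM to 397, 423 and 228 CPM, a log2 fold change of 1.30 (SE 0.244, adjusted p 0.000332), with all treated libraries above all vehicle libraries. The lowest of the treated libraries was replicate 3, the one that stood apart. Bcl2a1b rose from 144, 139 and 115 CPM to 315, 319.7 and 191 CPM (1.05, SE 0.224, adjusted p 0.00116). Bcl2a1a rose to 42.7, 57.0 and 23.0 CPM (5.27, SE 0.521, adjusted p 5.08e-08). Bcl2a1d rose from 12.1, 9.54 and 2.16 CPM to 39.2, 46.6 and 14.6 CPM (2.08, SE 0.598, adjusted p 0.0149), which did not stay called without vehicle replicate 3 (adjusted p 0.082), without AP-3-84 replicate 1 (0.0559) or without AP-3-84 replicate 2 (0.0967). In WT_M0 the sum stood at 63.8, 67.9 and 79.3 CPM with AP-3-84, a log2 fold change of -0.71 (SE 0.246) that was not called (adjusted p 0.333). The difference of the responses, KO minus WT, was 2.01 (SE 0.346, adjusted p 0.000246). Summed neutrophil markers stood at 612 to 769 CPM in KO_M0 vehicle and at 315 to 517 CPM with AP-3-84. Of 8 such markers tested, 0 were called, where 20.7% of all genes were, and their part in the result was not tested.

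In WT_M2, summed Bcl2a1 fell from 585, 852 and 623 CPM to 313, 292 and 485 CPM with AP-3-84. The log2 fold change of -0.92 (SE 0.24) lay just under the threshold (adjusted p 0.0479). That call was lost without WT_M2 vehicle replicate 1, 2 or 3 or AP-3-84 replicate 1 or 2 (adjusted p 0.0532, 0.242, 0.06, 0.276 and 0.274) and under total-count scaling (0.0808) or with only these 6 libraries in the fit (0.119). Bcl2a1a fell from 65.9, 51.9 and 26.9 CPM to 11.1, 5.36 and 15.3 CPM (-2.19, SE 0.375, adjusted p 0.00171). This call held without any of those libraries and was lost when only these 6 libraries were fitted (adjusted p 0.0877). Bcl2a1d was 56.5, 89.0 and 56.7 CPM against 12.4, 10.2 and 25.3 CPM (-2.08, adjusted p 0.0625), and Bcl2a1b 463, 711 and 539.9 CPM against 289.9, 276 and 444 CPM (-0.76, adjusted p 0.0845). For both, every treated library lay below every vehicle library. DESeq2 called Bcl2a1d (adjusted p 0.0243) and Bcl2a1b (0.0315). With all 48 libraries fitted together, edgeR called them too (adjusted p 0.0443 and 0.0356), as it did with no filter on low counts (2.31e-16 and 0.00218). That last setting keeps every gene with any count in the fit. Its log2 fold changes (-2.09 and -0.77) were close to those with the filter, so its far smaller p-values do not reflect larger changes. Why the p-values fell was not tested. Bcl2a1d was also called by edgeR with only these 6 libraries (adjusted p 0.0467), and Bcl2a1b without AP-3-84 replicate 3 (0.0289). The activation genes moved in the same libraries: Tnf stood at 108 to 291 CPM in WT_M2 vehicle and at 31.4 to 62.8 CPM with AP-3-84, and Acod1 at 176 to 1582 and at 64.3 to 129 CPM; their part in the result was not tested. Summed markers of neutrophils, which also express A1, stood at 475 to 4061 CPM in WT_M2 vehicle and at 216 to 553 CPM with AP-3-84. Of 8 such markers tested, 0 were called, where 1.21% of all genes were, and their part was not tested either.

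In the other populations the sum was not called after AP-3-84 by the edgeR fit used throughout. With only the libraries compared in the fit it was called lower in WT_M1 (adjusted p 0.0339) and thio (0.0475), and with no filter on low counts in ascites (0.0373), thio (0.012) and WT_M0 (0.0162). It stood at 428, 425 and 314 CPM with the compound in WT_M1, each below the 3 vehicle libraries (-0.59, SE 0.238, adjusted p 0.539). In thio it stood at 619, 562 and 649.9 CPM with vehicle and at 535, 523 and 421 CPM with AP-3-84 (-0.31, SE 0.132, adjusted p 0.282), again without overlap. In ascites the ranges overlapped, 393 to 446 CPM with vehicle and 275 to 398 CPM with AP-3-84 (-0.29, SE 0.132, adjusted p 0.471). In KO_M1 and KO_M2 the log2 fold changes were 0.15 (SE 0.237, adjusted p 1) and 0.06 (SE 0.237, adjusted p 0.948). The responses of KO and WT cells were not called different in M1 (0.75, adjusted p 0.684) or M2 (0.98, adjusted p 0.134), and those of ascites and thio differed by 0.02 (SE 0.186, adjusted p 0.992). For Bcl2a1a alone, the KO minus WT difference in M2 was called at 2.21 (adjusted p 0.0209), and lost without WT_M2 vehicle replicate 2 (0.052), WT_M2 AP-3-84 replicate 1 (0.0674) or 2 (0.0821), or KO_M2 vehicle replicate 2 (0.0811).

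Between genotypes in vehicle libraries, the sum was not called in M0 (0.30, adjusted p 0.346), M1 (-0.26, adjusted p 0.526) or M2 (-0.34, adjusted p 0.441). KO_M0 cells held less Bcl2a1a than WT_M0 cells, 0.27 to 2.46 CPM against 3.58 to 8.84 CPM (-2.38, adjusted p 0.00429). Ascites macrophages had less of the sum than thio macrophages, at 446, 438 and 393 CPM against 619, 562 and 649.9 CPM (-0.52, SE 0.132, adjusted p 0.00908), a call lost under total-count scaling (-0.42, adjusted p 0.0584). The copies went opposite ways there. Bcl2a1b was lower in ascites (-0.72, SE 0.122, adjusted p 0.000478), and Bcl2a1a was higher, at 63.1, 50.9 and 53.2 CPM against 6.51, 7.77 and 11.2 CPM (2.71, SE 0.307, adjusted p 6.21e-05). Host genotype label, tumour and elicitation differ together between ascites and thio, as do the epithelial or mesothelial markers, and cannot be told apart.

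Mcl1 (ENSMUSG00000038612, chromosome 3, 95658788 to 95663176) ran from 554 to 659 CPM in peritoneal libraries. In bone marrow-derived ones it ran from 296 CPM in a KO_M0 library with AP-3-84 to 633 CPM in a WT_M0 vehicle library. It was lower in M1 than in M0 in both genotypes by small amounts. In WT it stood at 413, 633 and 576 CPM in M0 and at 419, 391 and 360.0 CPM in M1 (-0.47, SE 0.143, adjusted p 0.0224), with overlap at M0 replicate 1. In KO it stood at 488, 433 and 441 CPM in M0 and at 336, 388 and 317 CPM in M1 (-0.39, SE 0.144, adjusted p 0.028), without overlap. The WT call was lost without M0 replicate 2 (0.141) or 3 (0.088) or M1 replicate 2 (0.0619) or 3 (0.094), and the KO call without M0 replicate 1 (0.114) or 3 (0.0544) or M1 replicate 1 (0.0776) or 3 (0.12). With no filter on low counts neither was called (0.0703 in WT and 0.155 in KO). With AP-3-84, Mcl1 was called in none of the 8 populations by the edgeR fit used throughout. It came closest in KO_M0, at 349, 296 and 409 CPM against 488, 433 and 441 CPM (-0.37, SE 0.144, adjusted p 0.064). There DESeq2 called it (adjusted p 0.0463). So did edgeR under total-count scaling (adjusted p 0.0293), with all 48 libraries fitted together (0.0437) and without AP-3-84 replicate 3 (0.016). In WT_M2, Mcl1 was lower without overlap, at 470, 444 and 467 CPM against 611, 633 and 521 CPM. Its KO minus WT difference in M2 was called by edgeR only without KO_M2 vehicle replicate 1 (adjusted p 0.0125) or with all 48 libraries (0.0399).

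Bcl2 (ENSMUSG00000057329, chromosome 1, 106538178 to 106714274) was higher in M2 than in M0 cells. In KO cells it rose from 7.60, 8.00 and 7.03 CPM to 20.2, 27.3 and 17.9 CPM (1.53, SE 0.331, adjusted p 0.000502). In WT cells it rose from 20.0, 6.93 and 6.13 CPM to 29.2, 23.8 and 20.3 CPM (1.14, SE 0.317, adjusted p 0.00829), and M0 replicate 1 lay apart from its mates and just under the lowest M2 library. That call was lost without WT_M0 replicate 2 (adjusted p 0.0735) or 3 (0.0697). The difference between the rises of KO and WT was not called (0.39, adjusted p 0.559). In M1 the gene was not called against M0 (0.09 in WT, adjusted p 0.896, and 0.69 in KO, adjusted p 0.0975). AP-3-84 gave no call for Bcl2 by the edgeR fit used throughout. The largest difference was in thio, at 11.6, 11.6 and 11.6 CPM with vehicle and 19.4, 20.1 and 11.7 CPM with AP-3-84 (0.56, SE 0.163, adjusted p 0.0644), where replicate 3 stayed at the vehicle level. Without that library the call was made, as it was with no filter on low counts (edgeR adjusted p 0.0104).

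Bcl2l1 (ENSMUSG00000007659, chromosome 2, 152780668 to 152831728), the gene of BCL-XL, was higher in KO_M1 than in KO_M0, at 110.1, 69.6 and 89.5 CPM against 30.7, 46.2 and 44.1 CPM (1.16, SE 0.309, adjusted p 0.00325). In WT cells it stood at 85.8, 84.0 and 120.3 CPM in M1 and at 105, 43.7 and 42.9 CPM in M0 (0.60, adjusted p 0.193), where WT_M0 replicate 1 stood apart, and the call was made without that library. It was higher in ascites than in thio, at 29.2, 37.4 and 44.3 CPM against 27.1, 25.0 and 22.0 CPM (0.59, SE 0.14, adjusted p 0.00316), a call lost with all 48 libraries in one fit (adjusted p 0.151). By the edgeR fit used throughout, AP-3-84 gave no call for Bcl2l1 in any of the 8 populations. DESeq2 called it in KO_M2 (-1.21, adjusted p 0.0317). With no filter on low counts, edgeR called it lower in WT_M0 (-0.89, adjusted p 0.00356) and KO_M2 (1.55e-05) and higher in thio (0.44, 0.00385). The thio call was also made with only the libraries compared (0.033). With AP-3-84 it stood at 29.5, 32.3 and 39.2 CPM in thio and at 28.3, 35.1 and 39.9 CPM in WT_M0, neither overlapping its vehicle group. In KO_M2 it was 25.7, 44.1 and 47.9 CPM with vehicle and 22.9, 13.3 and 14.8 CPM with AP-3-84 (-1.21, adjusted p 0.146, and 0.0166 without vehicle replicate 1), and in WT_M2 70.7, 32.0 and 43.1 CPM and 80.3, 79.1 and 64.5 CPM (0.62, adjusted p 0.439). The difference of these responses, KO minus WT, was called (-1.83, SE 0.452, adjusted p 0.0318) and lost when any of 8 of the 12 libraries was left out: WT_M2 vehicle 2 or 3, WT_M2 AP-3-84 1 or 2, KO_M2 vehicle 2 or 3, or KO_M2 AP-3-84 2 or 3 (adjusted p 0.0608 to 0.122). In M0 the difference was 1.45 (SE 0.439, adjusted p 0.0223), and it fell to 0.89 (adjusted p 0.14) without WT_M0 vehicle replicate 1. It was also lost without WT_M0 AP-3-84 1 (0.0714), KO_M0 vehicle 1 (0.0578), or KO_M0 AP-3-84 1 (0.0547) or 2 (0.0764).

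**Figure D3:**
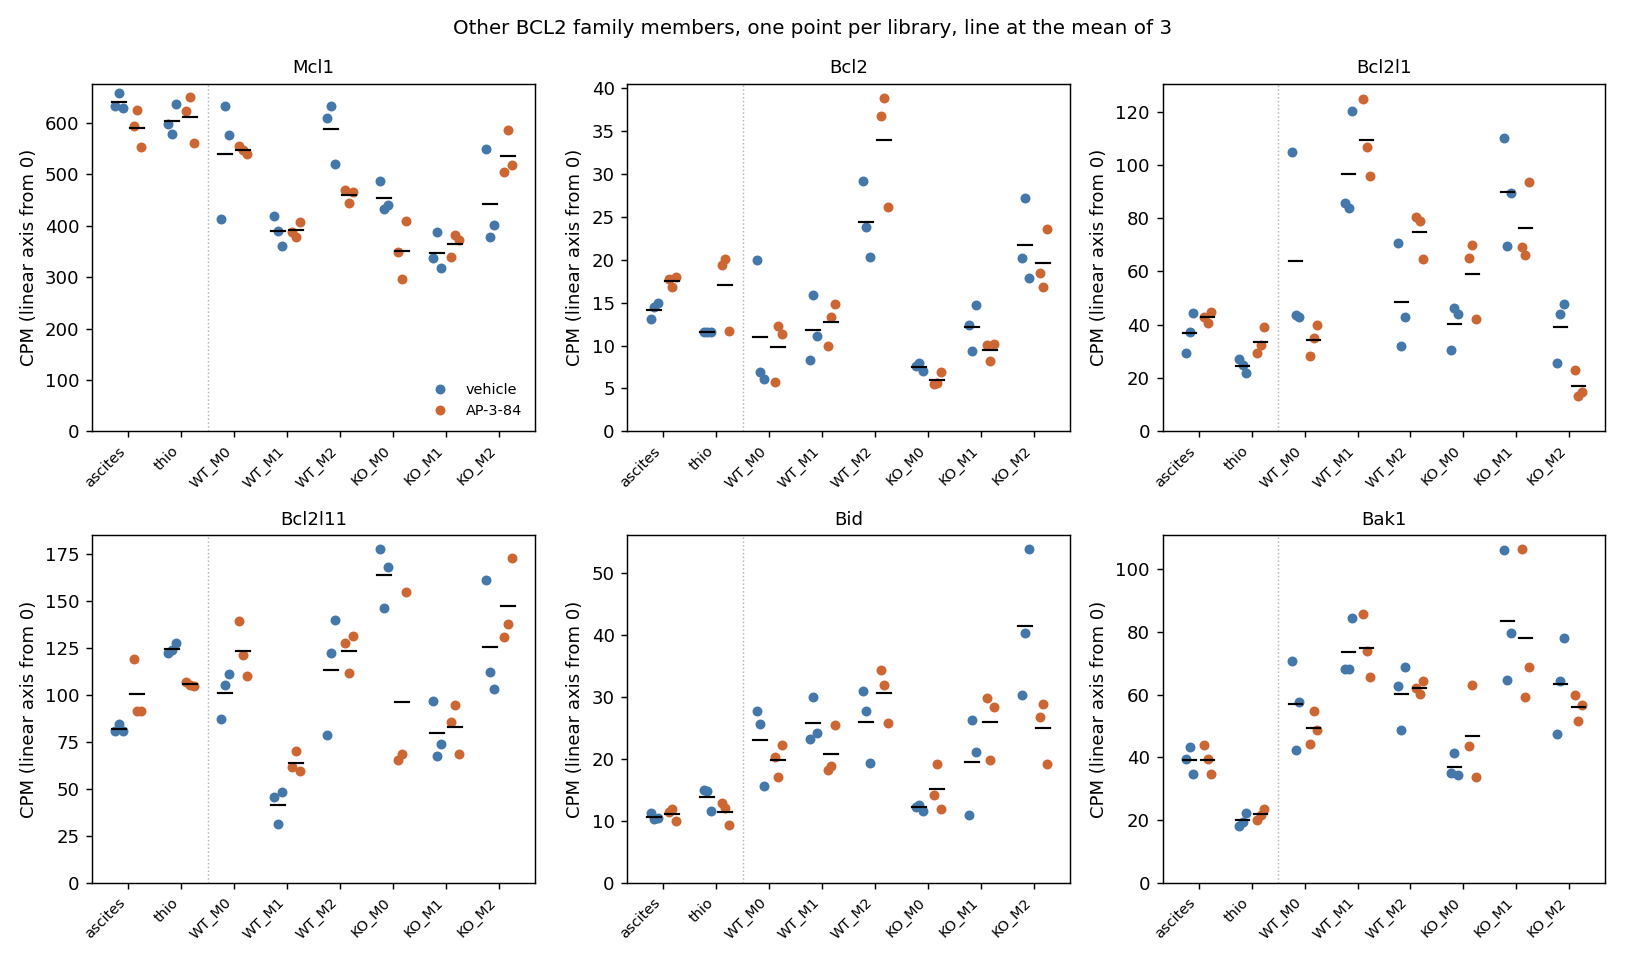
Levels of Mcl1, Bcl2, Bcl2l1, Bcl2l11, Bid and Bak1 in CPM (linear axes from 0, a scale of its own for each gene) in the 8 populations, blue for vehicle and orange for AP-3-84, with 1 point per library and a line at the mean of 3. Bcl2l11 is low in M1 cells and split in KO_M0 with AP-3-84 (65.7, 68.6 and 155 CPM), and Bid is highest in KO_M2 vehicle.

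Bcl2l11 (ENSMUSG00000027381, chromosome 2, 128126038 to 128162547), the gene of the BH3-only protein BIM, fell in M1 cells while A1 rose there. It went from 87.0, 105 and 111 CPM in WT_M0 to 45.6, 31.3 and 48.3 CPM in WT_M1 (-1.28, SE 0.249, adjusted p 0.000582). In KO cells it went from 178, 147 and 168 CPM to 97.0, 67.8 and 74.1 CPM (-1.04, SE 0.242, adjusted p 0.000815). Neither pair of groups overlapped, and the KO minus WT difference was 0.23 (adjusted p 0.681). In M2 it was not called against M0 (0.17 in WT, adjusted p 0.663, and -0.39 in KO, adjusted p 0.205).

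BIM transcripts were higher in KO than in WT vehicle cells in M0 (0.70, SE 0.24, adjusted p 0.0247) and M1 (0.93, SE 0.249, adjusted p 0.0144), in both without overlap. The call for Bcl2l11 in M0 was lost without WT_M0 replicate 1 (0.112) or 2 (0.0555) or KO_M0 replicate 1 (0.0772) or 3 (0.0703), and that in M1 without WT_M1 replicate 2 (0.0934) or KO_M1 replicate 1 (0.0836). In M2 it was 78.7 to 140.0 CPM in WT and 103 to 161 CPM in KO (0.14, adjusted p 0.792). With AP-3-84 in KO_M0, Bcl2l11 stood at 65.7, 68.6 and 155 CPM against 178, 147 and 168 CPM with vehicle (-0.77, SE 0.241, adjusted p 0.0217), and replicate 3, the library that stood apart, lay within the vehicle range. This call was lost without vehicle replicate 1 (0.0726) or 3 (0.0622) or AP-3-84 replicate 1 (0.159) or 2 (0.175). Its KO minus WT difference, -1.06 (SE 0.34, adjusted p 0.0294), was lost without any of 6 libraries, WT_M0 vehicle 1, WT_M0 AP-3-84 1, KO_M0 vehicle 1 or 3, or KO_M0 AP-3-84 1 or 2 (adjusted p 0.0611 to 0.116). In the peritoneal populations Bcl2l11 was not called by the edgeR fit used throughout. In ascites it went from 80.8, 84.5 and 81.1 to 119, 91.4 and 91.3 CPM (0.29, adjusted p 0.123). In thio it went from 122, 124 and 128 to 107, 105 and 105 CPM (-0.24, adjusted p 0.157). Treated and vehicle libraries overlapped in neither. The difference was 0.53 (SE 0.121, adjusted p 0.148). With no filter on low counts, edgeR called the rise in ascites (adjusted p 0.0421) and the difference (0.00286). With only the libraries compared, it called the fall in thio (0.0198). Vehicle cells of ascites held less Bcl2l11 than those of thio (-0.60, SE 0.086, adjusted p 2.38e-05).

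Bid (ENSMUSG00000004446, chromosome 6, 120891930 to 120916853), the BH3-only protein that caspase-8 cuts, was higher in KO_M2 than in KO_M0, at 30.2, 40.3 and 53.8 CPM against 12.3, 12.6 and 11.6 CPM (1.77, SE 0.275, adjusted p 7.52e-06). WT cells showed 30.9, 27.7 and 19.3 CPM in M2 and 27.8, 25.6 and 15.6 CPM in M0 (0.18, adjusted p 0.675). The KO minus WT difference was 1.59 (SE 0.38, adjusted p 0.00246), and the call held without any of the 12 libraries concerned. In M0, KO cells had less Bid than WT cells (-0.92, SE 0.277, adjusted p 0.0108), lost without WT_M0 replicate 1 (0.0674). In KO_M1 it stood at 11.0, 26.3 and 21.2 CPM (0.68 against KO_M0, adjusted p 0.0464), a call lost under total-count scaling (0.0722) and without any KO_M0 replicate (0.0834, 0.0753 and 0.102 for 1, 2 and 3) or KO_M1 replicate 2 (0.266) or 3 (0.119). Exons of Bid share 628 bases with Bcl2l13 on the opposite strand, and without knowledge that the counting used strand, reads there cannot be told apart. Bcl2l13 also rose in KO_M2 against KO_M0, by 0.65 (adjusted p 0.0245). Summed macrophage markers stood at 5970 to 18476 CPM in KO_M2 vehicle against 32522 to 39143 CPM in KO_M0 vehicle, and their part in the Bid result was not tested. AP-3-84 gave no call for Bid in any of the 8 populations by the edgeR fit used throughout. The largest difference was in KO_M2, at 26.8, 28.8 and 19.2 CPM against 30.2, 40.3 and 53.8 CPM (-0.74, adjusted p 0.232), without overlap. It was called without KO_M2 vehicle replicate 1 (-0.92, edgeR adjusted p 0.0482).

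Bak1 (ENSMUSG00000057789, chromosome 17, 27019810 to 27029009), the pore-forming member, rose in both polarized states of KO cells. It went from 35.1, 41.6 and 34.3 CPM in KO_M0 to 106, 64.6 and 79.7 CPM in KO_M1 (1.17, SE 0.227, adjusted p 0.000105) and to 47.5, 64.4 and 77.9 CPM in KO_M2 (0.78, SE 0.227, adjusted p 0.00756). The latter call was lost without KO_M2 replicate 3 (0.0639). In WT cells it stood at 70.7, 42.3 and 57.8 CPM in M0, 68.3, 68.1 and 84.3 CPM in M1 (0.37, adjusted p 0.284) and 62.9, 48.9 and 68.7 CPM in M2 (0.08, adjusted p 0.835). The KO minus WT differences were not called (0.80, adjusted p 0.069 for M1, and 0.70, adjusted p 0.101 for M2). The M1 difference of Bak1 was called under total-count scaling (0.0196), with no filter (0.0405), with only the libraries compared (0.0383), with all 48 libraries in one fit (0.0238) and without WT_M0 replicate 2 (0.0304) or KO_M1 replicate 2 (0.0322). The M2 difference was called under total-count scaling (0.0472) and without KO_M2 replicate 1 (0.0418). KO_M0 cells had less Bak1 than WT_M0 cells (-0.62, SE 0.228, adjusted p 0.0339), lost without WT_M0 replicate 1 (0.204) or 3 (0.0639) or KO_M0 replicate 1 (0.089) or 3 (0.109). Ascites cells had more than thio cells, at 39.5, 43.3 and 34.8 CPM against 18.2, 19.3 and 22.4 CPM (0.97, SE 0.119, adjusted p 3.89e-06). After AP-3-84 the changes of Bak1 ran from -0.21 in WT_M0 to 0.34 in KO_M0, with no call.

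The count of members called was read against the share of all genes called in the same comparison. With AP-3-84, 0 of 9 members were called by edgeR in ascites (1.79% of all genes tested were), thio (4.32%), WT_M0 (0.144%), WT_M1 (0.017%), KO_M1 (0%) and KO_M2 (0.0509%). At an unadjusted p under 0.05 the counts were 2, 4, 2, 2, 0 and 2 in that order, and DESeq2 called 0, 0, 0, 0, 0 and 1. In WT_M2, 1 of 9 was called, lower (background 1.21%), and 3 by DESeq2. In KO_M0, 3 were called higher and 1 lower, where 20.7% of all genes were called. Those 3 were the Bcl2a1 copies, which share sequence and cannot be counted as separate results. The median log2 fold change of the members in KO_M0 was 0.34, against -0.03 for all genes. The KO_M0 vehicle libraries also serve as the base of the KO polarization and M0 genotype comparisons.

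Polarization gave more calls among the members, and among all genes. WT_M1 against WT_M0 had 3 members higher and 2 lower (background 15.5%), and WT_M2 had 4 higher and 0 lower (23.4%). KO_M1 against KO_M0 had 6 higher and 2 lower (44.5%), and KO_M2 had 6 higher and 0 lower (38%). The 3 Bcl2a1 copies, which cannot be counted as separate results, were among the higher members in each of these comparisons. In WT_M1 they were the only higher members. The M1 and M2 comparisons of a genotype share their M0 libraries. KO against WT had 1 member higher and 3 lower in M0 (33.2%), 1 higher in M1 (11.6%) and 0 called by edgeR in M2 (3.56%), where 2 had an unadjusted p under 0.05 and DESeq2 called 0. Ascites against thio had 3 higher and 2 lower (33.7%). With only the libraries compared in the fit, calls were also lost for Bcl2a1d (adjusted p 0.0809) and Bcl2l11 (0.169) after AP-3-84 in KO_M0, Bcl2 in WT_M2 against WT_M0 (0.0953) and Bid in KO_M1 against KO_M0 (0.0921).

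Of the differences between responses, the KO minus WT difference after AP-3-84 in M0 was called for 5 members (background 17%). Of these, 4 were higher, among them the 3 Bcl2a1 copies, and 1 lower. The same difference in M2 was called for 2 (1.77%). In M1 it was called for 0 (0.00849%), as were WT_M1 minus WT_M0 (0.0255%), WT_M2 minus WT_M0 (0.136%) and ascites minus thio (0.118%). At an unadjusted p under 0.05 these last 4 held 1, 1, 2 and 1 members, and DESeq2 called 0, 0, 1 and 0. The KO minus WT difference of M1 against M0 was called for 1 member, Bcl2a1a (2.31, adjusted p 0.0205, background 20.7%). That of M2 against M0 was called for 3, Bcl2a1a (2.00, adjusted p 0.0394), Bid and Bcl2a1b (-0.84, adjusted p 0.0451), where the background was 27.1%.

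**Figure D4:**
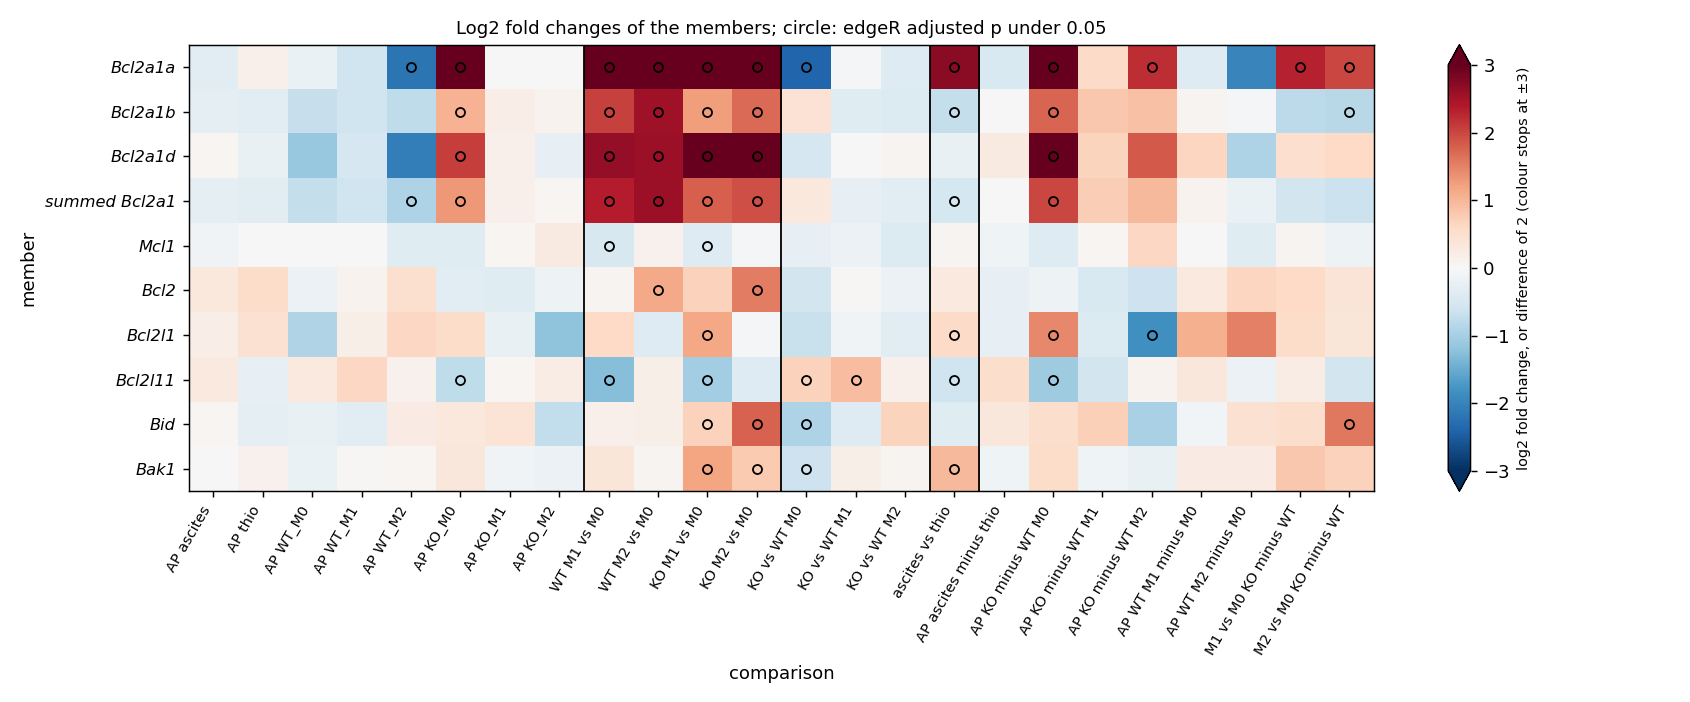
Log2 fold changes (red higher, blue lower, colour stops at 3 and -3) of the 9 members and of summed Bcl2a1 in the 24 comparisons, with AP standing for AP-3-84; circles mark an edgeR adjusted p under 0.05. Black lines part, from left to right, AP-3-84 against vehicle, polarization, genotype, ascites against thio and differences between responses; the A1 rows are red throughout the polarization block.

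Other genes of the pathway, from lists of the remaining BCL2 family (11 of 17 tested), the steps downstream of the mitochondrion (14 of 14), the death receptor arm (10 of 10) and regulators of the members (10 of 10), were also counted. These lists, too, were drawn up with results of these libraries known. After AP-3-84 in thio, where 4.32% of all genes were called, 3 regulators were higher and 1 lower. The median log2 fold change of that list was 0.10, and that of all genes 0.03. Trib3 was up by 2.14 (edgeR adjusted p 3.70e-05), Atf4 by 0.68 (0.000115) and Ddit3 by 0.62 (0.0168). In ascites, where 1.79% of all genes were called, 2 regulators were higher, Trib3 by 1.09 (0.00964) and Atf4 by 0.44 (0.00782). In KO_M0, where 20.7% of all genes were called, 3 regulators were higher and 1 lower. Trib3 was up by 3.00 (0.000938), Ddit3 by 1.07 (0.0327) and Atf4 by 1.04 (0.000202). ATF4 and DDIT3, also known as CHOP, are transcription factors of the integrated stress response, and TRIB3 is one of its targets.

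Downstream of the mitochondrion, AP-3-84 in KO_M0 was followed by more Cycs, the gene of cytochrome c, at 126 ± 38.4 against 40.7 ± 5.74 CPM (1.63, adjusted p 1.50e-05), more Vdac2 (0.40, 0.0437) and less Casp6 (-0.91, 0.00218), while the other 11 of 14 were not called, where 20.7% of all genes were. Of the death receptor arm Cflar, an inhibitor of caspase-8, rose in KO_M0 (0.73, adjusted p 0.0069). Of the remaining family in KO_M0, Bnip3l fell (-0.79, adjusted p 0.0458), and the BH3-only gene Bik was called higher at few reads, with 0 counts over the 3 vehicle and 39 over the 3 treated libraries.

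With polarization, Cycs also rose in KO_M1 (2.18, adjusted p 3.74e-08) and KO_M2 (1.77, adjusted p 1.00e-06) against KO_M0. Of the 14 genes downstream of the mitochondrion, 4 were higher and 3 lower in KO_M1 (background 44.5%). In KO_M2, 3 were higher and 1 lower (background 38%). In WT_M1, 1 was higher and 1 lower, and Cycs was not called (background 15.5%). Cycs was also called between genotypes in M0 vehicle cells and in the KO minus WT differences for M1 and M2. These Cycs calls and the rise with the compound all use the KO_M0 vehicle libraries, which differed in activation genes. Of the death receptor arm, 0 of 10 genes were called by edgeR or DESeq2 in WT_M1, with 0 at an unadjusted p under 0.05. There edgeR called 15.5% of all genes. In KO_M1, where 44.5% of all genes were called, 3 were higher, Tnfrsf10b (1.90, adjusted p 0.00627), Fas (1.61, 0.000818) and Cflar (1.44, 7.03e-07), and 1 was lower. In vehicle M0 cells 4 of 10 genes of that arm were called, where 33.2% of all genes were, and these 4 were lower in KO than in WT, among them Tnfrsf10b (-2.51, 0.000724), Fas (-1.11, 0.0236) and Cflar (-0.77, 0.00276). Bax, the partner of BAK and a p53 target, was lower in KO_M0 (11.1 ± 3.46 CPM) than in WT_M0 (24.1 ± 2.45 CPM), with a log2 fold change of -1.11 (adjusted p 0.00427). Bbc3, which encodes PUMA and is a p53 target, was lower in KO_M2 than in WT_M2 (-1.42, adjusted p 0.000534) and was not called between genotypes in M0 or M1. Bax was not called between genotypes in M1 or M2. Of 11 genes of the remaining family tested, 2 were higher and 2 lower in KO_M0 than in WT_M0, where 33.2% of all genes were called. In M1, 1 was called, Pmaip1, which was higher in KO (background 11.6%). In M2, Bbc3 alone was called (background 3.56%).

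Likeness of pattern was described over the 12 bone marrow-derived groups as Pearson r of mean log2 CPM among 8419 other genes, which share libraries and depth with the members. The nearest genes to summed Bcl2a1 were Aldh1b1 (r = 0.935) and Cd40 (0.927), to Mcl1 S100a4 (0.916) and Ifi27 (0.894), and to Bcl2 Hsph1 (0.961) and Cdh1 (0.952). For Bcl2l1 they were Dynll2 (0.964) and Commd8 (0.953), for Bcl2l11 Cxcr4 (0.946) and Rora (0.945), for Bid Dut (0.954) and Vrk1 (0.942), and for Bak1 Mrpl49 (0.985) and Brip1os (0.98). The values are the highest of many and describe these groups only.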

How the data were processed

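RNA of 48 libraries (16 groups of 3) was made into 3′ libraries from 100 ng of DNase-treated RNA with QuantSeq FWD and read as single 75-base reads, per the labels' protocols. The authors deposited raw counts per gene, and the submitters' processing notes name RSEM, Bowtie2 and DESeq2 without role or version; whether estimated counts were rounded or strand was used is not stated there. All 48 columns matched a label. Symbols came from GENCODE M21 and covered 51596 of 51789 gene rows.

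From these deposited counts, edgeR 4.0.16 (R 4.3.3) fitted its quasi-likelihood test with TMM scaling, filterByExpr and 1 mean per group, for 12 peritoneal and 36 bone marrow-derived libraries apart. P-values were two-sided and Benjamini-Hochberg adjusted over all genes tested in each of 24 comparisons, and called at 0.05. The sum of Bcl2a1 replaced its 3 rows in the same fit. Total counts ran from 15532373 to 19417581 (peritoneal) and from 3081707 to 4645148 (bone marrow), so low genes are less precise in the latter. Alternatives were other scalings, no filter, DESeq2 1.42.0, a replicate block, other sets of libraries in the fit and each library left out.

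The members and all lists were chosen with earlier results of these data known. The figure of log2 fold changes shows all 9 members in every comparison. The text leaves out some pairs of a member and a comparison, and some of these were called in an alternative. Mcl1 was lower in KO_M2 than in WT_M2 without KO_M2 vehicle replicate 1 (edgeR adjusted p 0.0141). Bcl2l1 was lower in KO_M0 than in WT_M0 with no filter on low counts (0.0092). Bid was lower in ascites than in thio without thio vehicle replicate 3 (0.0337). Of other lists at most the 3 called genes with the largest change in a comparison were named. For likeness, the 2 genes with the highest r were named among those whose log2 CPM averaged at least 3.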

Additional observations from a re-analysis of the deposited data

Results flagged for a closer look

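The response to AP-3-84 in M0 cells differed between KO and WT, by the test of that difference, for 5 members and the sum. KO minus WT was 5.48 for Bcl2a1a (edgeR adjusted p 1.56e-05), 1.75 for Bcl2a1b (0.000421), 3.22 for Bcl2a1d (0.0143), 2.01 for summed Bcl2a1 (0.000246), 1.45 for Bcl2l1 (0.0223) and -1.06 for Bcl2l11 (0.0294), all on the log2 scale. The Bcl2a1d call was lost without WT_M0 vehicle replicate 2 (0.0561) or KO_M0 AP-3-84 replicate 2 (0.0525). In M2 cells the KO minus WT difference was 2.21 for Bcl2a1a (0.0209) and -1.83 for Bcl2l1 (0.0318).

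The change from M0 to a polarized state also differed between KO and WT vehicle cells. For M1 the difference was 2.31 for Bcl2a1a (edgeR adjusted p 0.0205), lost without WT_M0 vehicle replicate 2 (0.0879) or KO_M0 vehicle replicate 1 (0.072) or 3 (0.0807). For M2 it was 2.00 for Bcl2a1a (0.0394), -0.84 for Bcl2a1b (0.0451) and 1.59 for Bid (0.00246). The M2 call of Bcl2a1a was lost without WT_M0 vehicle 2, WT_M2 vehicle 3, KO_M0 vehicle 1 or 3, or KO_M2 vehicle 3 (0.0803 to 0.155). That of Bcl2a1b was lost without WT_M0 vehicle 1 or 3, WT_M2 vehicle 2 or 3, KO_M0 vehicle 1 or 2, or KO_M2 vehicle 2 or 3 (0.0696 to 0.151). With only the libraries compared in the fit, the calls lost were those after AP-3-84 in M0 of Bcl2a1d (0.0997), Bcl2l11 (0.0915) and Bcl2l1 (0.0567), in M2 of Bcl2a1a (0.0863) and Bcl2l1 (0.0892), and from M0 to M2 of Bcl2a1a (0.087) and Bcl2a1b (0.0818). The Bcl2a1a values rest on 2, 8 and 1 counts in the KO_M0 vehicle libraries.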

How the results depend on the processing

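No member changed sign while called, in any alternative run. Of 216 pairs of a member and a comparison, 49 were called, 28 kept the call in every alternative, 19 lost it when 1 library was left out and 15 in another alternative, and 31 uncalled pairs were called in some alternative. DESeq2 called all 49 and 5 more. The 5 calls after AP-3-84 became 16 with no filter on low counts, 9 with DESeq2, 8 with all 48 libraries in one fit and 3 with the copies summed, and ran from 3 to 8 when 1 library was left out. The 23 polarization calls became 15 with the copies summed and ran from 21 to 25 without 1 library. The 5 genotype calls ran from 3 to 6 and the 5 of ascites against thio from 5 to 6. The 11 calls of differences between responses became 19 with no filter, 6 with only the libraries compared and 5 with the copies summed, and ran from 6 to 14 without 1 library. Summing the copies leaves 7 genes in place of 9; the other causes were not tested.

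The replicate number as a block gave 5, 22, 5, 5 and 10 calls in the same order, keeping 47 of 49. Deviations of same-numbered vehicle and treated libraries of a population correlated over 0.1 in 4 of 24 such pairs (-0.401 to 0.406, median -0.0536). Those over 0.1 were in WT_M2 (0.211 and 0.231) and KO_M1 (0.316 and 0.406). Libraries of different populations were not compared in this way. Whether libraries with the same number came from a shared mouse or culture was not tested. With the block, the call was lost for summed Bcl2a1 in WT_M2 (-0.90, adjusted p 0.0727), Bid in KO_M1 against KO_M0 (0.65, 0.064) and the M2 difference of Bcl2a1b (-0.83, 0.051). Depth limits Bcl2a1a in KO_M0 vehicle cells, at 1 to 8 counts per library.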
